A study of Mus musculus with 15 samples.

Results

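The genes described here are 37 enzymes and carriers of amino acid breakdown and the urea cycle in mouse liver. They were taken by gene symbol from a written list of pathway members, which was drawn up with earlier results of these data known but applies no measured value as a criterion, and all 37 were found among the 23509 gene symbols of the deposited tables. By pathway they comprised 7 urea cycle genes, 7 transaminase and glutamate genes, 6 genes of tyrosine breakdown and biopterin recycling, 4 of histidine, 6 of serine, glycine and proline, 4 of tryptophan and 3 of branched-chain amino acids. The serine, glycine and proline list also holds Etnppl, a gene of phosphoethanolamine breakdown. All 37 had a mean of at least 0.5 FPKM (fragment counts divided by gene length and library total) in every fit and were tested.

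The study asked, per its title, how loss of aldehyde dehydrogenase 2 (Aldh2), the mitochondrial enzyme that oxidises the acetaldehyde made from ethanol, affects liver fibrosis in ethanol-fed mice. Liver RNA was sequenced from male Aldh2-/- mice given an ethanol diet (n = 4, replicates 86, 89, 90 and 96), WT mice given the ethanol diet (n = 5, replicates 5, 6, 7, 11 and 12), Aldh2-/- mice given a pair-fed control diet (n = 3, replicates 1, 2 and 9) and WT mice given the control diet (n = 3, replicates 18, 19 and 20). All mice are labelled C57BL/6 and 8 to 10 weeks old. The treatment protocol and the treatment labels state that all 4 groups also received intraperitoneal carbon tetrachloride (CCl4), a hepatotoxin, 2 times a week for 8 weeks, and were killed 24 hours after the last dose, whereas the sample titles name CCl4 only for the ethanol groups. The labels name no Cre driver or conditional allele, the Aldh2-/- mice came from 1 commercial stock, and the labels do not say whether the WT mice were littermates. No group without CCl4 was analysed here. The labels do not state that each library is a separate animal, so p-values measure the spread between these libraries.

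The liver is the main site of amino acid breakdown. Transaminases and dehydratases strip the amino group, which reaches the urea cycle as ammonia or aspartate, and the carbon skeletons enter glucose synthesis or the citric acid cycle. Most of these genes are transcribed at high levels in hepatocytes, many of them in the periportal zone, and fasting hormones such as glucagon and glucocorticoids raise a large part of them.

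Aldh2 itself stood at 6.57 to 11.5 FPKM in the 7 Aldh2-/- libraries and at 277 to 688 FPKM in the 8 WT libraries. The relative depth of the libraries ran from 90.0% to 111.0% of their mean. Among pair-fed livers, the 13 mitochondrially encoded genes made up 15.2% to 24.2% of all FPKM in WT and 6.90% to 10.8% in Aldh2-/-. In the ethanol groups they took 6.68% to 9.72%, apart from 13.6% in WT 5 and 18.2% in Aldh2-/- 90. Of the hepatocyte markers, 9 of 10 were in the tables and all 9 exceeded a mean of 0.5 FPKM, with a summed level of 62797 to 99280 FPKM in all libraries. In whole-liver RNA, fewer cells of a type and less RNA per cell cannot be told apart.

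The amino acid genes together took more of the RNA in every ethanol-fed library than in any pair-fed one, and each diet was deposited as a table of its own. Their share of the summed FPKM was 2.40% to 4.60% in ethanol-fed Aldh2-/-, 2.56% to 3.51% in ethanol-fed WT, 1.46% to 1.86% in pair-fed WT and 0.925% to 1.24% in pair-fed Aldh2-/- livers. With the mitochondrially encoded genes left out of the sum, pair-fed WT stood at 1.72% to 2.46% and pair-fed Aldh2-/- at 1.02% to 1.33%. The 2 genotypes overlapped under ethanol and did not overlap under pair-feeding. A summed share is weighted to abundant genes, and Ass1 and Arg1 were the largest contributors in every library.

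**Figure D1:**
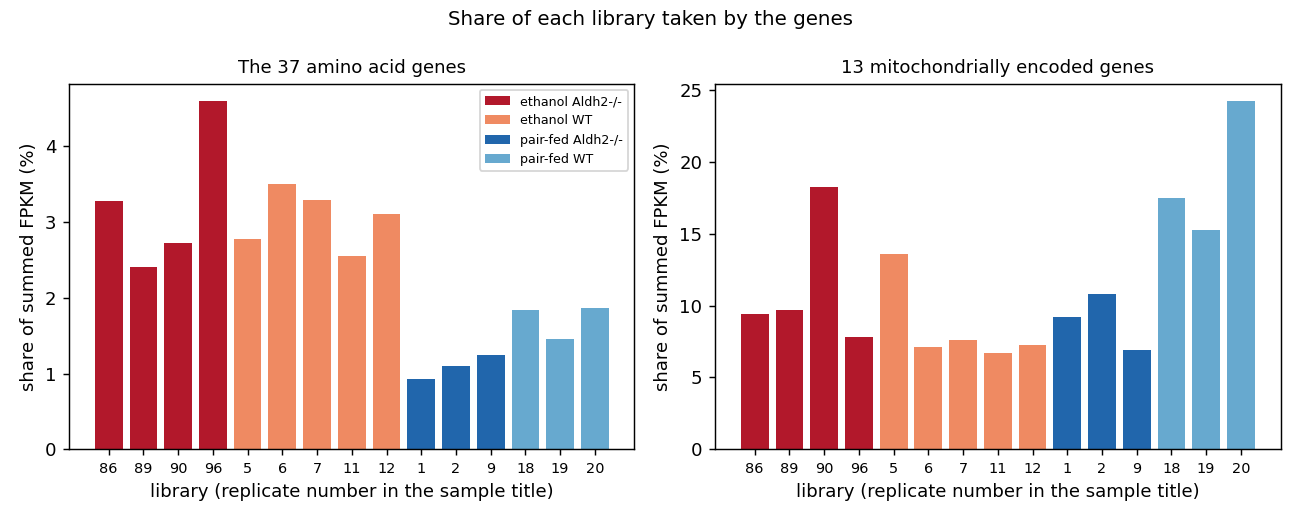
Share of the summed FPKM of each library (percent, bars from 0) taken by the 37 amino acid genes (left) and by 13 mitochondrially encoded genes (right), 15 libraries coloured by group. The 3 pair-fed Aldh2-/- libraries have the lowest amino acid shares (0.925% to 1.24%), and the 3 pair-fed WT libraries include the highest mitochondrial share (24.2%).

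Upstream sequence is shown for 3 genes: Got1 and Etnppl, which had the largest differences in genotype effect between the diets, and Hal, which held the most motif matches. The sequences are from RefSeq (build GRCm38.p6), run 5′ to 3′ on the coding strand and end at the base before the annotated start. Got1 lies on the minus strand (chr19:43524606-43524855), Etnppl on the plus strand (chr3:130617198-130617447) and Hal on the plus strand (chr10:93488518-93488767). Capitals mark matches on either strand to a C/EBP motif (TTNNGNAA, the family of liver-enriched bZIP factors) or a TATA motif (TATAAA).
Got1: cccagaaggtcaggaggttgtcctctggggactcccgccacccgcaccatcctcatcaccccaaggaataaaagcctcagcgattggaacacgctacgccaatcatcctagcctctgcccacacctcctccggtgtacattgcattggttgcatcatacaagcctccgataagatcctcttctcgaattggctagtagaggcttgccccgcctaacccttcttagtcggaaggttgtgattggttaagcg
Etnppl: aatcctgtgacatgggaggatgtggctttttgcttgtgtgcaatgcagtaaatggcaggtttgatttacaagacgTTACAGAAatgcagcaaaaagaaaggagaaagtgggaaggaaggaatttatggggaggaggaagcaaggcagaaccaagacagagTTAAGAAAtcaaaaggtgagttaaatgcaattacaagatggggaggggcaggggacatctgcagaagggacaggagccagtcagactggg
Hal: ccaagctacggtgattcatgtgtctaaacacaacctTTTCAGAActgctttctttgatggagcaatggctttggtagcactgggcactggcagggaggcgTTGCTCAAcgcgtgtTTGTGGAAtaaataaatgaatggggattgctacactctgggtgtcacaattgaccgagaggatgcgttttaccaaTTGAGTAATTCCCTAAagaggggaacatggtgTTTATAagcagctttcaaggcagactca
Etnppl held 2 C/EBP matches, Hal held 5 and 1 TATA match, and Got1 held none of either. Of the 37 genes, 29 had a promoter window in the RefSeq table, with 33 windows of 300 bases in all. A C/EBP match was found in 14 of the 33 windows (42.4%) and in 40.7% of all 32851 windows of the same length, and a TATA match in 6 (18.2%) and 13.6%. The cAMP response element TGACGTCA was found in 0 of the 33 windows and in 1.79% of all windows, its short form TGACG in 2 (Ftcd and Nags, 6.06%) and 20.8%, and the HNF4 motif CAAAGTCCA in 0 and 0.475%. The short form TGACG lies within TGACGTCA, and each search covered both strands. A match is a string of letters and not a measured site.

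Levels are given as FPKM, which are per gene length, and changes as differences of log2(FPKM + 1) with the standard error (SE) of the limma fit. A group mean in FPKM is followed by its SD over the libraries of that group (n = 4, 5, 3 and 3 as listed above), with Aldh2-/- given before WT. A gene is called when its Benjamini-Hochberg adjusted p, over all genes tested, is under 0.05.

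Loss of Aldh2 went with different changes of these genes in the 2 diets. Under pair-feeding 20 of the 37 genes were called lower in Aldh2-/- than in WT livers and 2 higher (Glud1 and Kmo). Over all 11138 genes of that comparison 2.41% were called lower and 26.0% higher. The median change of the 37 genes was -0.54, against 0.26 over all genes. When the libraries were rescaled by the median ratio, which moved the all-gene median to 0.002, 23 of the 37 were lower and 0 higher, and quantile normalization gave 20 lower and 0 higher. Without Aldh2-/- 1 the count of calls fell from 22 to 8 and without WT 20 to 9, all lower, and without the filter on low levels it was 13.

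Under ethanol the 37 genes split. In Aldh2-/- livers 4 were called higher than in WT (Got1, Etnppl, Sdsl and Asl) and 10 lower, where 21.5% and 15.7% of all 11013 genes were called higher and lower. The median change was -0.10, against 0.04 over all genes. Without Aldh2-/- 89 the split was 9 higher and 9 lower.

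The interaction, the difference between the genotype effects of the 2 diets (ethanol minus pair-fed), was called positive for 12 of the 37 genes and negative for 4 (Got2, Glud1, Qdpr and Pcbd1). Over all 11157 genes 8.06% were called positive and 29.0% negative. The median was 0.38, against -0.22 over all genes. With median-ratio rescaling the split was 19 positive and 3 negative, rescaled to a common sum it was 10 and 6, and with library quality weights it was 19 and 7.

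**Figure D2:**
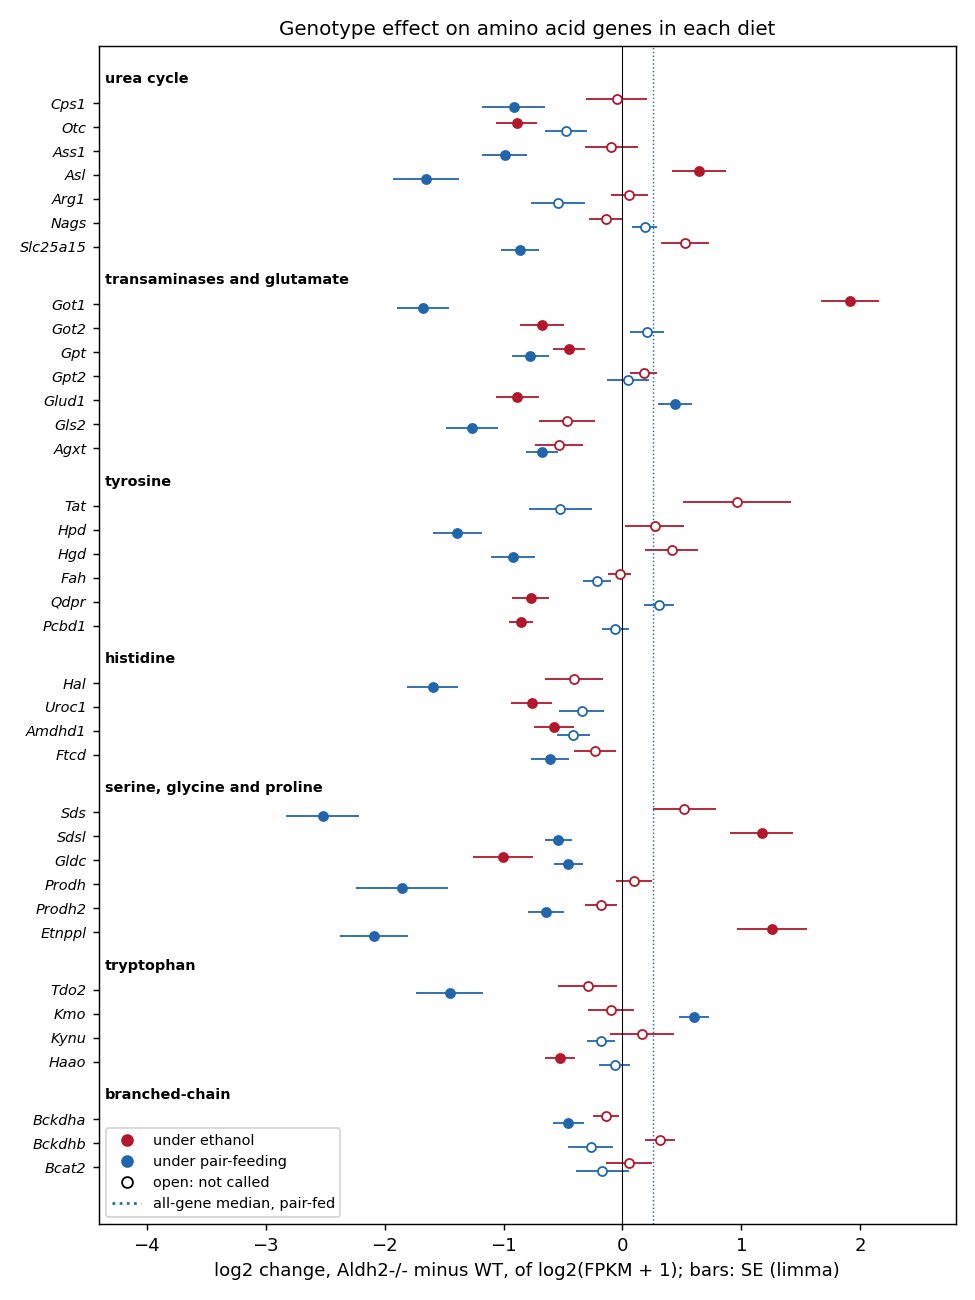
Genotype effect (Aldh2-/- minus WT, log2 of FPKM + 1, bars the SE of the limma fit) for the 37 genes by pathway, under ethanol in red and under pair-feeding in blue. Filled points are called, and the dotted line is the all-gene median under pair-feeding (0.26). Most blue points lie left of 0, while the red points lie on both sides.

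Got1, the cytosolic aspartate transaminase, stood at 1284, 792, 884 and 1721 FPKM in ethanol-fed Aldh2-/- and at 330.1, 357, 321, 203 and 293 FPKM in ethanol-fed WT livers. The pair-fed livers had 27.4, 26.8 and 46.4 FPKM in Aldh2-/- and 115, 88.4 and 117 FPKM in WT. All 4 groups were separate from each other, with the Aldh2-/- livers highest under ethanol and lowest under pair-feeding. Got1 (chr19:43499752-43524605) was 3.89-fold higher in Aldh2-/- under ethanol (log2 1.91 ± 0.24, adjusted p = 0.000403) and 3.18-fold lower under pair-feeding (log2 -1.68 ± 0.22, adjusted p = 0.00604, or -1.93 relative to the all-gene median). The interaction was 3.59 ± 0.37 (adjusted p = 4.39e-05), the largest of the 37 genes.

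Got2, the mitochondrial aspartate transaminase, moved the other way. It was 1.60-fold lower in Aldh2-/- under ethanol, with means of 180.4 ± 40.8 (SD, n = 4) against 288 ± 52.8 FPKM (SD, n = 5, log2 -0.68, adjusted p = 0.0158). This call was lost without Aldh2-/- 86 (adjusted p = 0.0517). Under pair-feeding the means were 205 ± 28.4 in Aldh2-/- and 176 ± 17.9 FPKM in WT (SD, n = 3 each, adjusted p = 0.281). Its interaction of -0.89 was called (adjusted p = 0.017) but not with median-ratio rescaling (-0.60, adjusted p = 0.133) or quantile normalization (-0.75, adjusted p = 0.0607). Got1 and Got2 had nearly the same mean level in ethanol-fed WT livers (301 and 288 FPKM), while in ethanol-fed Aldh2-/- livers Got1 stood at 1170.1 and Got2 at 180.4 FPKM.

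Gpt and Gpt2, the cytosolic and mitochondrial alanine transaminases, differed too. Gpt was lower in Aldh2-/- in both diets, 1.36-fold under ethanol (241 ± 38.7 against 328 ± 33.9 FPKM, adjusted p = 0.0229) and 1.72-fold under pair-feeding (105 ± 12.0 against 181 ± 29.0 FPKM, adjusted p = 0.0144). The ethanol call was lost on leaving out Aldh2-/- 89 or 90 or WT 6 or 7 (adjusted p up to 0.0616), and the pair-fed call without Aldh2-/- 1 or WT 20 (adjusted p up to 0.0675). Gpt2 differed by log2 0.18 under ethanol and 0.05 under pair-feeding and was called in neither (adjusted p = 0.251 and 0.855). Differences between the effects on the 2 genes of a pair were not tested.

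**Figure D3:**
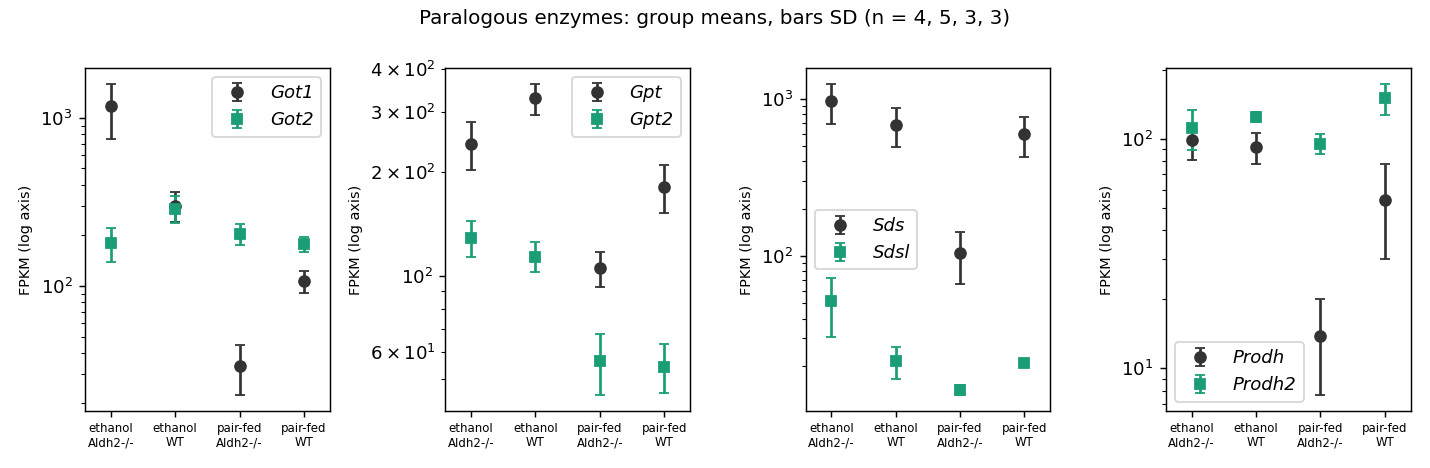
Group means (points) with SD (bars) in FPKM on log axes for 4 pairs of related enzymes, with n = 4, 5, 3 and 3 libraries from left to right. Got1 and Got2 cross between ethanol-fed Aldh2-/- and pair-fed Aldh2-/- livers, while Gpt stays above Gpt2 and Sds above Sdsl in all 4 groups.

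Glutamate dehydrogenase, which releases ammonia from glutamate in mitochondria, is encoded by Glud1 (chr14:34310727-34345265). Its level was 188, 195, 134 and 227 FPKM in ethanol-fed Aldh2-/- and 254, 349, 308, 418 and 385 FPKM in ethanol-fed WT livers. Pair-fed Aldh2-/- livers had 320.1, 276 and 325 FPKM and pair-fed WT livers 246, 241 and 191 FPKM. The Aldh2-/- libraries were all below WT under ethanol and all above WT under pair-feeding. Glud1 fell 1.85-fold in Aldh2-/- under ethanol (log2 -0.88 ± 0.18, adjusted p = 0.00409), and the interaction was -1.33 ± 0.26 (adjusted p = 0.00177). The pair-fed difference of 0.44 had an adjusted p of 0.0498, was 0.19 relative to the all-gene median, was not called with median-ratio rescaling (0.10, adjusted p = 0.695), and was lost on leaving out any 1 of the 6 libraries (adjusted p up to 0.161).

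Gls2, the liver-type glutaminase, was 2.39-fold lower in pair-fed Aldh2-/- (75.1 ± 20.0 against 179.6 ± 31.7 FPKM, adjusted p = 0.011) and was not called under ethanol (154 ± 44.8 against 211 ± 50.7 FPKM, adjusted p = 0.147). Agxt, which disposes of glyoxylate with alanine as amino donor, was 1.60-fold lower in pair-fed Aldh2-/- (144 ± 12.5 against 231 ± 25.8 FPKM, adjusted p = 0.0141), which was no longer called without Aldh2-/- 1 (adjusted p = 0.069). Under ethanol Agxt had means of 138 ± 38.8 in Aldh2-/- and 196 ± 32.6 FPKM in WT (adjusted p = 0.0569).

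In the urea cycle 4 of 7 genes were called lower in pair-fed Aldh2-/- livers (Cps1, Ass1, Asl and Slc25a15) and 0 higher, with a median change of -0.86. Over all genes 2.41% were called lower and 26.0% higher in that comparison, with a median of 0.26. Under ethanol 1 was called higher (Asl) and 1 lower (Otc), with a median of -0.05. The all-gene shares there were 21.5% higher and 15.7% lower, with a median of 0.04. Asl, which splits argininosuccinate into arginine and fumarate, is on chr5:130011258-130029247. It stood at 1134, 775, 1038 and 1252 FPKM in ethanol-fed Aldh2-/- and 894, 822, 707, 416 and 584 FPKM in ethanol-fed WT livers. In pair-fed livers it stood at 105, 138 and 152 FPKM in Aldh2-/- and 507, 261 and 524 FPKM in WT. The genotypes overlapped under ethanol and were separate under pair-feeding. Asl was 3.27-fold lower in pair-fed Aldh2-/- (log2 -1.65 ± 0.27, adjusted p = 0.0103, or -1.91 relative to the all-gene median) and its interaction was 2.30 ± 0.39 (adjusted p = 0.000697). The rise of 0.64 ± 0.23 under ethanol had an adjusted p of 0.0463 and was lost on leaving out any 1 of Aldh2-/- 86, 90 and 96 and WT 7, 11 and 12 (adjusted p up to 0.113) and under the 3 rescalings tried.

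Slc25a15, the carrier that brings ornithine into mitochondria, is on chr8:22375551-22398597. Ethanol-fed Aldh2-/- livers had 212, 121, 168 and 253 FPKM and ethanol-fed WT livers 104, 148, 147, 115 and 124 FPKM. In pair-fed Aldh2-/- the libraries had 28.1, 33.7 and 41.4 FPKM and pair-fed WT livers 70.0, 61.1 and 57.6 FPKM. Every pair-fed Aldh2-/- library was below every other library, and under ethanol the genotypes overlapped. The gene was 1.83-fold lower in pair-fed Aldh2-/- (log2 -0.86 ± 0.16, adjusted p = 0.0129), which was no longer called without Aldh2-/- 1 (adjusted p = 0.0579). Under ethanol the difference of 0.52 ± 0.20 was not called (adjusted p = 0.064), but was called without Aldh2-/- 89. The interaction was 1.39 ± 0.29 (adjusted p = 0.00277).

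Otc, the mitochondrial enzyme that joins ornithine to carbamoyl phosphate, is on chrX:10252305-10321024. It stood at 46.7, 38.3, 68.4 and 67.2 FPKM in ethanol-fed Aldh2-/- and 89.4, 98.6, 115, 92.9 and 106 FPKM in ethanol-fed WT livers. The pair-fed values were 55.3, 66.5 and 88.7 FPKM in Aldh2-/- and 100.9, 89.1 and 98.8 FPKM in WT. All Aldh2-/- libraries were below all WT libraries of their diet. Otc was 1.82-fold lower in Aldh2-/- under ethanol (log2 -0.89 ± 0.17, adjusted p = 0.00303). The pair-fed difference of -0.48 ± 0.18 was not called (adjusted p = 0.0713), although it was without Aldh2-/- 9, and the interaction of -0.41 was not called (adjusted p = 0.235).

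Cps1, the enzyme that fixes ammonia as carbamoyl phosphate, had means of 145 ± 50.05 in Aldh2-/- and 272 ± 71.0 FPKM in WT under pair-feeding. The difference was called (adjusted p = 0.0372), but the groups overlapped and it was lost without Aldh2-/- 1 or 2 or WT 18 or 20 (adjusted p up to 0.126). Under ethanol Cps1 stood at 887 ± 439.8 and 857 ± 132 FPKM (adjusted p = 0.897). Ass1, which makes argininosuccinate, was 1.97-fold lower in pair-fed Aldh2-/- (990.0 ± 198 against 1954 ± 307 FPKM, adjusted p = 0.0137), which was no longer called without Aldh2-/- 1 or WT 20 (adjusted p up to 0.0577). Its interaction of 0.90 had an adjusted p of 0.0437 and was lost on leaving out any 1 of 9 of the 15 libraries: Aldh2-/- 86, 96, 1 and 2 and WT 5, 11, 12, 18 and 20 (adjusted p up to 0.126). Arg1, the arginase that releases urea, and Nags, which makes the activator of Cps1, were called in neither genotype comparison. Arg1 differed by -0.54 under pair-feeding (adjusted p = 0.0972) and was called there without WT 19 and with library quality weights, while Nags lay between 31.3 and 51.4 FPKM in all libraries.

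Tyrosine is broken down in sequence by Tat, Hpd, Hgd and Fah, and under pair-feeding the called changes were those of the middle steps, Hpd and Hgd. Hpd, 4-hydroxyphenylpyruvate dioxygenase (chr5:123171807-123182727), stood at 1763, 962, 1776 and 2664 FPKM in ethanol-fed Aldh2-/- and 1380.1, 1617, 1587, 1167 and 1274 FPKM in ethanol-fed WT livers. Pair-fed knockouts had 292, 440.2 and 503 FPKM and pair-fed WT livers 1057, 941 and 1170.1 FPKM. The pair-fed groups were separate, and the ethanol groups overlapped, with Aldh2-/- 89 below every WT library. Hpd was 2.57-fold lower in pair-fed Aldh2-/- (log2 -1.39 ± 0.21, adjusted p = 0.00805, or -1.64 relative to the all-gene median), with an interaction of 1.66 ± 0.37 (adjusted p = 0.00369). The ethanol difference of 0.27 was not called (adjusted p = 0.415) but was without Aldh2-/- 89.

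Hgd, homogentisate dioxygenase, was 1.86-fold lower in pair-fed Aldh2-/- (122 ± 34.3 against 227 ± 6.75 FPKM, adjusted p = 0.0148), which was no longer called without Aldh2-/- 1 or WT 20 (adjusted p up to 0.0657). Its interaction of 1.34 was called (adjusted p = 0.00631), and without Aldh2-/- 89 its ethanol difference of 0.41 (adjusted p = 0.162) was called. Tat, the tyrosine transaminase of the first step, was not called in either genotype comparison, and its level spread from 225 to 1226 FPKM among ethanol-fed WT livers. Fah, the last enzyme, ran from 365 to 463 FPKM over all 15 libraries and was called in none of the 5 comparisons.

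Pcbd1 and Qdpr, which recycle the tetrahydrobiopterin cofactor of phenylalanine hydroxylation, were lower in Aldh2-/- under ethanol. Pcbd1 (chr10:61089331-61094324) stood at 172, 181, 161 and 170.2 FPKM in ethanol-fed Aldh2-/- and 339.9, 303, 331, 296 and 283 FPKM in ethanol-fed WT livers. The pair-fed livers had 399.8, 387 and 365 FPKM in Aldh2-/- and 389, 426 and 385 FPKM in WT. The ethanol groups were far apart relative to their spread and the pair-fed groups overlapped. Pcbd1 was 1.81-fold lower in Aldh2-/- under ethanol (log2 -0.85 ± 0.10, adjusted p = 0.000305), differed by -0.06 under pair-feeding (adjusted p = 0.714), and had an interaction of -0.80 ± 0.14 (adjusted p = 0.000902, or -0.58 relative to the all-gene median).

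Qdpr (chr5:45434021-45450236) stood at 144, 123, 97.0 and 164 FPKM in ethanol-fed Aldh2-/- and 202, 262, 242, 204 and 209 FPKM in ethanol-fed WT livers. Pair-fed Aldh2-/- livers had 142, 139.7 and 147 FPKM and pair-fed WT livers 108, 131 and 109 FPKM. Neither diet had overlap between the genotypes, and the order was opposite in the 2 diets. The ethanol difference was 1.69-fold lower in Aldh2-/- (log2 -0.77 ± 0.16, adjusted p = 0.00384), the pair-fed difference of 0.31 was called only without WT 19 or with library quality weights (adjusted p = 0.091 otherwise), and the interaction was -1.08 ± 0.22 (adjusted p = 0.00215).

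Histidine passes through Hal, Uroc1, Amdhd1 and Ftcd in that order. Hal, the lyase of the first step (chr10:93488768-93519304), stood at 148, 71.6, 137 and 193 FPKM in ethanol-fed Aldh2-/- and 141, 207, 180.3, 155 and 187 FPKM in ethanol-fed WT livers. In the pair-fed groups it stood at 35.7, 32.6 and 55.9 FPKM in Aldh2-/- and 119, 106 and 149 FPKM in WT. The 3 pair-fed Aldh2-/- libraries were the lowest of the 15. Hal was 3.02-fold lower there than in pair-fed WT (log2 -1.60 ± 0.22, adjusted p = 0.00626, or -1.85 relative to the all-gene median), and the ethanol difference of -0.41 was not called (adjusted p = 0.21). The interaction of 1.19 ± 0.37 (adjusted p = 0.0224) was lost without Aldh2-/- 1 or 2 or WT 20 (adjusted p up to 0.0638).

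The next 2 histidine genes were called in the other diet. Uroc1, urocanate hydratase, was 1.69-fold lower in Aldh2-/- under ethanol (86.1 ± 18.6 against 146 ± 23.5 FPKM, adjusted p = 0.0067), and Amdhd1 1.47-fold lower (76.4 ± 18.4 against 112 ± 11.1 FPKM, adjusted p = 0.0218), which was no longer called without WT 6 (adjusted p = 0.0547). Their interactions were -0.42 and -0.16 and were not called (adjusted p = 0.24 and 0.619), so a difference between the diets was not shown for them. Under pair-feeding both were called when WT 19 was left out and with library quality weights. Ftcd, which hands the last fragment to folate, was 1.55-fold lower in pair-fed Aldh2-/- (94.7 ± 6.12 against 147 ± 28.2 FPKM, adjusted p = 0.0294), which was no longer called without Aldh2-/- 1 or 2 or WT 18 or 20 (adjusted p up to 0.102).

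All 6 genes of the serine, glycine and proline list were called lower in pair-fed Aldh2-/- livers, with a median change of -1.25. Over all genes 2.41% were called lower and 26.0% higher there, with a median of 0.26. The list includes Etnppl, which acts on phosphoethanolamine and on none of these amino acids. The pair-fed calls of Sdsl, Gldc, Prodh and Prodh2 each depended on single libraries. Under ethanol 2 of the 6 genes were higher (Sdsl and Etnppl) and 1 lower (Gldc), where 21.5% and 15.7% of all genes were called higher and lower. Sds, serine dehydratase (chr5:120476526-120483932), stood at 956, 647, 1325 and 954 FPKM in ethanol-fed Aldh2-/- and 816, 688, 714, 364 and 826 FPKM in ethanol-fed WT livers. In pair-fed Aldh2-/- the libraries had 66.2, 143 and 105 FPKM and pair-fed WT livers 671, 399.6 and 721 FPKM. The pair-fed Aldh2-/- libraries were below all others. Sds was 5.70-fold lower in them than in pair-fed WT (log2 -2.52 ± 0.31, adjusted p = 0.0055, or -2.78 relative to the all-gene median), the largest genotype change of the 37 genes in that diet. Under ethanol the difference of 0.52 was not called (adjusted p = 0.144), and the interaction was 3.04 ± 0.45 (adjusted p = 0.000295).

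Sdsl, the serine dehydratase-like gene next to Sds in the genome (chr5:120458186-120472810), had lower levels. Ethanol-fed Aldh2-/- livers had 60.0, 29.0, 76.5 and 41.2 FPKM and ethanol-fed WT livers 26.6, 24.0, 22.1, 13.7 and 20.8 FPKM. The pair-fed values were 12.9, 14.5 and 14.8 FPKM in Aldh2-/- and 21.9, 20.0 and 20.7 FPKM in WT. Genotypes were separate in both diets, in opposite order. Sdsl was 2.41-fold higher in Aldh2-/- under ethanol (log2 1.17 ± 0.27, adjusted p = 0.00684) and 1.48-fold lower under pair-feeding (log2 -0.54 ± 0.11, adjusted p = 0.0165). The pair-fed call was lost without Aldh2-/- 1 or WT 20 (adjusted p up to 0.0803) and in the joint fit of 4 groups (adjusted p = 0.145), and the interaction was 1.71 ± 0.36 (adjusted p = 0.00267).

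Etnppl, which breaks down phosphoethanolamine and is a relative of the transaminases, is on chr3:130617448-130637521. Its level was 224, 82.2, 142 and 247 FPKM in ethanol-fed Aldh2-/- and 55.8, 86.0, 69.1, 51.6 and 74.2 FPKM in ethanol-fed WT livers. Pair-fed knockouts had 6.94, 10.5 and 14.3 FPKM and pair-fed WT livers 66.6, 34.4 and 44.0 FPKM. The single overlap between genotypes was Aldh2-/- 89, which fell below WT 6. Etnppl was 2.58-fold higher in Aldh2-/- under ethanol (log2 1.26 ± 0.29, adjusted p = 0.00766) and 4.56-fold lower under pair-feeding (log2 -2.09 ± 0.29, adjusted p = 0.00638, or -2.34 relative to the all-gene median). The interaction was 3.34 ± 0.47 (adjusted p = 0.000221).

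Prodh, proline dehydrogenase (chr16:18060357-18090203), stood at 115, 77.9, 90.3 and 109.8 FPKM in ethanol-fed Aldh2-/- and 98.5, 104, 99.6, 69.3 and 87.2 FPKM in ethanol-fed WT livers. The pair-fed livers had 8.76, 20.7 and 12.0 FPKM in Aldh2-/- and 59.6, 27.7 and 74.3 FPKM in WT. The ethanol groups lay on top of each other and the pair-fed groups were separate. Prodh was 3.89-fold lower in pair-fed Aldh2-/- (log2 -1.86 ± 0.39, adjusted p = 0.0161), which was no longer called without Aldh2-/- 1 or WT 20 (adjusted p up to 0.0645). It differed by 0.10 under ethanol (adjusted p = 0.652), and the interaction was 1.95 ± 0.42 (adjusted p = 0.00283). Prodh2, a related enzyme that oxidises hydroxyproline, was 1.58-fold lower in pair-fed Aldh2-/- (95.2 ± 9.78 against 149.9 ± 23.5 FPKM, adjusted p = 0.021), which was no longer called without Aldh2-/- 1 or 2 or WT 18 or 20 (adjusted p up to 0.0865).

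Gldc, the decarboxylase of the glycine cleavage system (chr19:30098447-30175429), stood at 32.0, 35.1, 36.3 and 66.3 FPKM in ethanol-fed Aldh2-/- and 49.8, 102, 77.6, 102 and 95.2 FPKM in ethanol-fed WT livers. Pair-fed Aldh2-/- livers had 27.6, 24.0 and 28.7 FPKM and pair-fed WT livers 35.7, 38.2 and 37.1 FPKM. Only Aldh2-/- 96 overlapped WT under ethanol, where it was above WT 5. Gldc was 2.01-fold lower in Aldh2-/- under ethanol (log2 -1.01 ± 0.25, adjusted p = 0.0111) and 1.38-fold lower under pair-feeding (log2 -0.45 ± 0.12, adjusted p = 0.0277). The pair-fed call was lost without any 1 of Aldh2-/- 1 and 2 and WT 18, 19 and 20 (adjusted p up to 0.092) and in the joint fit of 4 groups (adjusted p = 0.198), and the interaction of -0.55 was not called (adjusted p = 0.215), but was without Aldh2-/- 96 or WT 5.

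**Figure D4:**
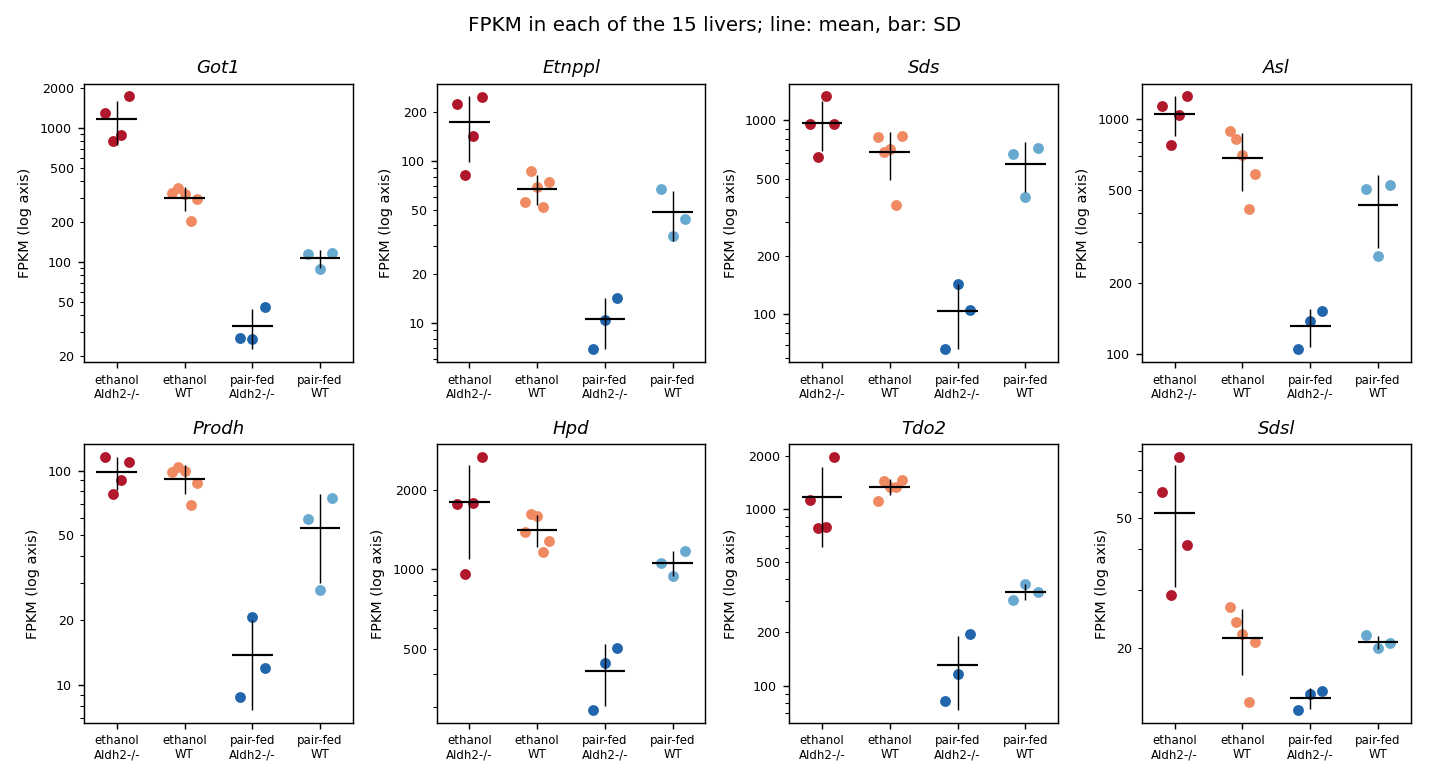
FPKM on log axes in each of the 15 libraries for 8 genes, with the group mean (line) and SD (bar). In Got1, Etnppl, Sds, Asl, Prodh, Hpd and Tdo2 the 3 pair-fed Aldh2-/- points are the lowest of the panel. In Got1 the 4 ethanol-fed Aldh2-/- points (792 to 1721) are above all others.

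Tryptophan enters the kynurenine pathway through Tdo2 (chr3:81957090-81976202). Tdo2 stood at 1128, 777, 795 and 1968 FPKM in ethanol-fed Aldh2-/- and 1111, 1439, 1324, 1336 and 1452 FPKM in ethanol-fed WT livers. In pair-fed Aldh2-/- the libraries had 81.4, 117 and 196 FPKM and pair-fed WT livers 306, 375 and 339 FPKM. Every ethanol-fed library was above every pair-fed one, and the genotypes were separate under pair-feeding only. The gene was 2.59-fold lower in pair-fed Aldh2-/- (log2 -1.45 ± 0.28, adjusted p = 0.0138), which was no longer called without WT 20 (adjusted p = 0.0551). The ethanol difference of -0.29 was not called (adjusted p = 0.378) except without Aldh2-/- 96. The interaction of 1.16 ± 0.41 had an adjusted p of 0.0391 and was lost on leaving out any 1 of 10 libraries: Aldh2-/- 86, 1 and 2 and WT 5, 6, 7, 11, 18, 19 and 20 (adjusted p up to 0.122).

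The later kynurenine genes among the 37 were not called lower in pair-fed Aldh2-/- livers, apart from Kynu with some rescalings. Afmid, a gene of that pathway outside the 37, was called lower there, with values given below. Kmo, kynurenine monooxygenase, was 1.52-fold higher in pair-fed Aldh2-/- (127 ± 8.10 against 83.3 ± 8.93 FPKM, adjusted p = 0.0166), but 0.35 relative to the all-gene median. The call was lost with median-ratio rescaling (0.25, adjusted p = 0.261), with quantile normalization (adjusted p = 0.0612) and without Aldh2-/- 1 or WT 20 (adjusted p up to 0.0646). Haao, which opens the ring of 3-hydroxyanthranilate, was 1.43-fold lower in Aldh2-/- under ethanol (49.3 ± 8.70 against 70.5 ± 3.51 FPKM, adjusted p = 0.00922) and differed by -0.06 under pair-feeding (adjusted p = 0.717). Kynu, kynureninase, was called in neither, apart from the ethanol comparison without Aldh2-/- 89 (higher) and the pair-fed comparison with median-ratio rescaling or quantile normalization (lower).

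Of the branched-chain genes, Bckdha, a subunit of the branched-chain keto acid dehydrogenase, was 1.37-fold lower in pair-fed Aldh2-/- (116 ± 14.6 against 158 ± 5.75 FPKM, adjusted p = 0.0347). The call was lost without Aldh2-/- 1 or 2 or WT 18, 19 or 20 (adjusted p up to 0.143). Its partner subunit Bckdhb was not called under ethanol (53.8 ± 10.4 against 42.4 ± 1.02 FPKM, adjusted p = 0.0704), although it was without Aldh2-/- 89 or 96, and not called under pair-feeding. Bcat2, a branched-chain transaminase, had the lowest mean of the 37 genes in every group, 6.92 to 11.1 FPKM, and was called in neither genotype comparison.

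The 4 groups were also compared between the diets, where the diet coincides with the deposited table, so that a difference between the tables cannot be told apart from the diet. In Aldh2-/- livers 20 of the 37 genes were called higher under ethanol and 4 lower (Glud1, Pcbd1, Kmo and Haao), against 17.6% and 29.3% of all 11157 genes. The median change was 0.93, against -0.09 over all genes. Got1 was 34.9-fold higher (log2 5.06 ± 0.27, adjusted p = 2.44e-08), Etnppl 16.4-fold (log2 3.84), Sds 9.27-fold (log2 3.22), Tdo2 8.88-fold (log2 3.12) and Asl 7.98-fold (log2 2.98). Of the 24 calls, 23 held under each of 27 alternatives, and that of Haao was lost with quantile normalization.

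In WT livers 12 genes were called higher under ethanol and 2 lower (Pcbd1 and Bcat2), against 29.2% and 11.9% of all genes, with a median of 0.38 against 0.10. Rescaled to a common sum the split was 20 and 0, and with median-ratio rescaling 9 and 4. Tdo2 was 3.92-fold higher (log2 1.97 ± 0.29, adjusted p = 0.000261), Cps1 3.16-fold (log2 1.68, adjusted p = 0.000555), Got1 2.82-fold (log2 1.47, adjusted p = 0.000612), Gldc 2.30-fold (log2 1.14, adjusted p = 0.0019) and Gpt2 2.09-fold (log2 1.06, adjusted p = 0.000193). Sds, Sdsl and Etnppl were not called in WT (log2 0.18, 0.01 and 0.50). The fall of Bcat2 (log2 -0.58, adjusted p = 0.0471) was lost on leaving out any 1 of 9 libraries, Aldh2-/- 86, 1, 2 and 9 and WT 6, 11, 12, 18 and 20 (adjusted p up to 0.192), and that of Pcbd1 (log2 -0.37) when rescaled to a common sum (-0.14, adjusted p = 0.267). Each of the diet comparisons shares its groups with the genotype comparisons.

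**Figure D5:**
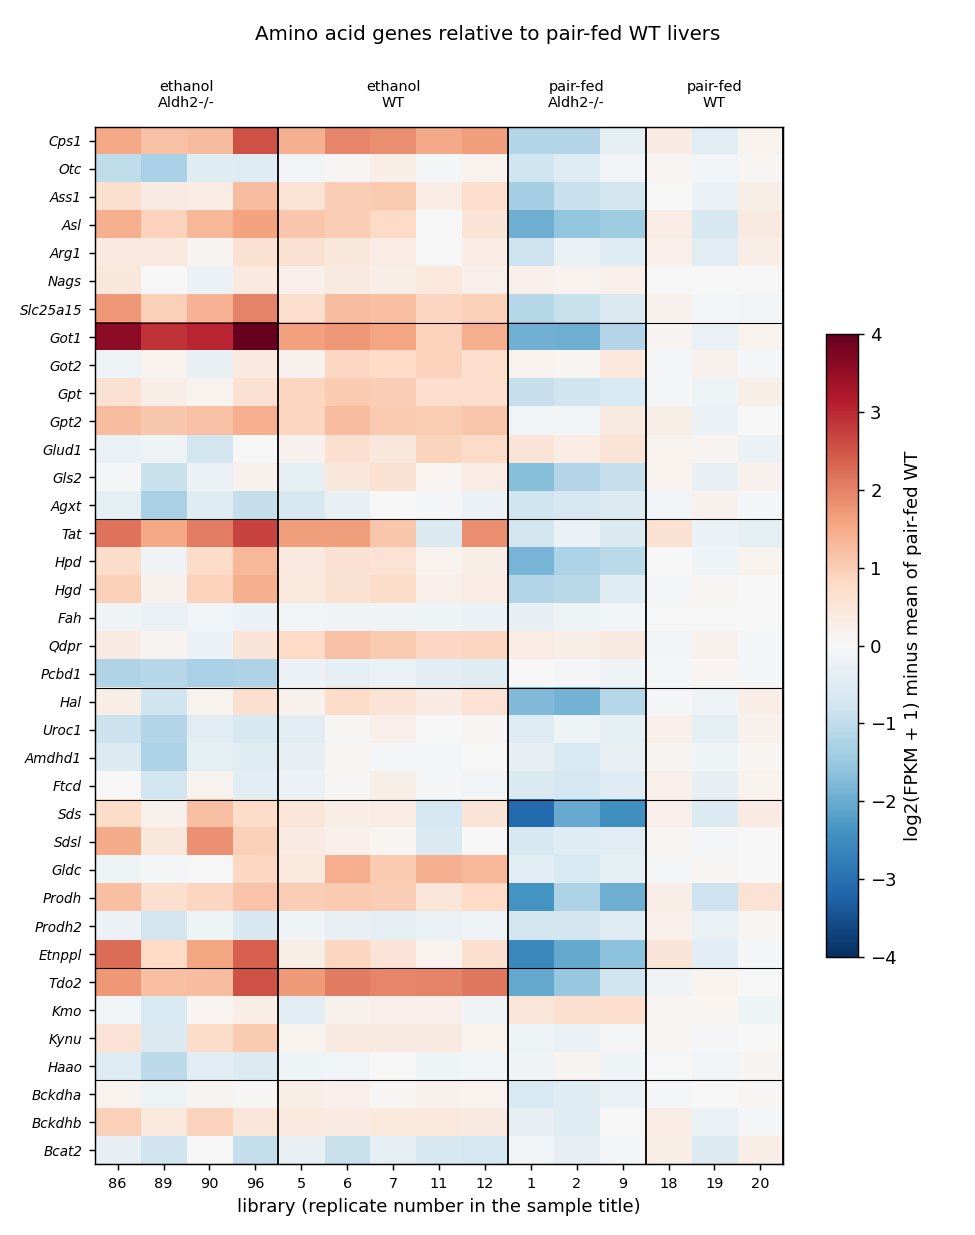
Level of the 37 genes in each of the 15 libraries as log2(FPKM + 1) minus the mean of the 3 pair-fed WT libraries, red higher and blue lower, in blocks by pathway. The pair-fed Aldh2-/- columns are blue for most genes, and Got1 in ethanol-fed Aldh2-/- 96 is the darkest red cell.

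The libraries of a group differed in the same direction over many of these genes. Aldh2-/- 89 had the lowest level of the ethanol-fed Aldh2-/- group for 27 of the 37 genes and Aldh2-/- 96 the highest for 20. Among pair-fed livers Aldh2-/- 9 was the highest of its group for 30 genes and WT 19 the lowest of its group for 23. The median coefficient of variation over the 37 genes was 26.6% in ethanol-fed Aldh2-/-, 15.2% in ethanol-fed WT, 13.9% in pair-fed Aldh2-/- and 13.4% in pair-fed WT livers.

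Markers of other cells also differed between these groups. Beside the counts below, 21.5% of all genes were called higher and 15.7% lower in Aldh2-/- under ethanol. Under pair-feeding the shares were 26.0% higher and 2.41% lower. All 8 Kupffer cell markers were in the tables, and their summed level was 410 to 983 FPKM in ethanol-fed Aldh2-/-, 181 to 240.0 FPKM in ethanol-fed WT, 348 to 412 FPKM in pair-fed Aldh2-/- and 163 to 240.3 FPKM in pair-fed WT livers. Of the 7 tested under ethanol 6 were called higher in Aldh2-/-, and of the 8 tested under pair-feeding 5. The 5 neutrophil markers summed to 28.1 to 87.4, 5.29 to 27.4, 17.3 to 34.5 and 14.6 to 15.1 FPKM in the same order, with Ly6g, Mpo and Elane below 1 FPKM in every library. The 8 endothelial markers summed to 106 to 146, 44.5 to 94.0, 66.6 to 85.4 and 65.2 to 83.8 FPKM. All 8 were called higher in Aldh2-/- under ethanol, and under pair-feeding 0 were called higher and 1 lower. The 10 markers of monocyte-derived macrophages summed to 501 to 836, 158 to 356, 398 to 434 and 157 to 232 FPKM, and 8 of the 9 tested under ethanol were called higher in Aldh2-/-, while under pair-feeding 4 of 10 were called higher and 1 lower. The 9 stellate cell and myofibroblast markers summed to 58.6 to 97.0, 32.9 to 61.9, 142 to 153 and 50.3 to 97.98 FPKM, with 6 called higher under ethanol, 3 under pair-feeding and 0 lower in either. The 6 cholangiocyte markers, of which Cftr was below 1 FPKM in every library, summed to 163 to 306, 54.9 to 181, 146 to 253 and 68.4 to 117 FPKM. Spp1, which is also counted among the macrophage markers, was the largest contributor to the cholangiocyte sum in every library. Of the 5 cholangiocyte markers tested, 3 were called higher under ethanol and 1 under pair-feeding, and 0 lower in either. All 6 erythroid and platelet markers were called higher in Aldh2-/- under ethanol (633 to 2055 against 170 to 515 FPKM) and 1 under pair-feeding (253 to 588 against 484 to 699 FPKM). Under pair-feeding the Kupffer, macrophage, stellate, cholangiocyte and neutrophil sums of Aldh2-/- were all above those of WT. Aldh2-/- 89, lowest for most amino acid genes, had the highest Kupffer sum of its group (983 FPKM) and the highest neutrophil sum (87.4 FPKM), and Aldh2-/- 96 had the lowest of both (410 and 28.1 FPKM). The part of these cells in the results was not tested. The hepatocyte marker sum was 96722 to 99280 FPKM in pair-fed Aldh2-/- and 79371 to 92637 FPKM in pair-fed WT. Under ethanol it was 62797 to 74886 FPKM in Aldh2-/- and 73198 to 91918 FPKM in WT. Of the 9 hepatocyte markers, 3 were called higher and 0 lower under pair-feeding, with a median change of 0.19 against 0.26 over all genes. Alb overlapped between the pair-fed genotypes (37770 to 50335 FPKM in Aldh2-/- and 40198 to 46081 FPKM in WT). The part of hepatocyte content in the results was not tested.

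Some zonal markers were called in each diet. Of the 8 pericentral hepatocyte markers, Slc1a2 and Lgr5 were below 1 FPKM in every library. Under pair-feeding 2 of the 5 tested were called lower in Aldh2-/- (Cyp2e1 and Oat) and 0 higher, against 2.41% and 26.0% of all genes. Under ethanol 2 of the 6 tested were called higher (Glul and Rhbg) and 0 lower, against 21.5% and 15.7%. The interaction was called positive for 4 of 6 and negative for 0 (median 0.96), against 8.06% and 29.0% of all genes (median -0.22). Cyp2e1, an ethanol-oxidising cytochrome P450 of that zone, was lower in pair-fed Aldh2-/- (299 ± 222 against 1147 ± 365 FPKM, log2 -2.14, adjusted p = 0.0165) and was not called under ethanol (1607 ± 486 against 2265 ± 447 FPKM, adjusted p = 0.0825). It was the largest contributor in every library to the summed level of the list, which was 285 to 728 FPKM in pair-fed Aldh2-/-, 992 to 1673 FPKM in pair-fed WT, 1263 to 2470 FPKM in ethanol-fed Aldh2-/- and 2256 to 3309 FPKM in ethanol-fed WT livers. Glul, the glutamine synthetase of that zone, stood at 105 to 114 FPKM in ethanol-fed Aldh2-/- and 60.6 to 82.7 FPKM in ethanol-fed WT livers (log2 0.70, adjusted p = 0.00115), and at 27.9 to 33.8 against 25.9 to 29.1 FPKM under pair-feeding (adjusted p = 0.313). Cyp1a2 was called in neither diet (61.6 to 127 FPKM in pair-fed Aldh2-/- and 49.1 to 82.0 FPKM in pair-fed WT). The 8 periportal markers other than the 37 genes, except that Gls2 is counted in both lists, summed to 1751 to 2660 FPKM in pair-fed Aldh2-/- and 2826 to 3271 FPKM in pair-fed WT. Under pair-feeding 3 were called lower and 1 higher in Aldh2-/-, and under ethanol 2 higher and 0 lower. Their interaction was called positive for 1 and negative for 1 (median -0.24). Within the pair-fed sum Mup20 stood at 606 to 1168 FPKM in Aldh2-/- and 1391 to 1850 FPKM in WT. Cdh1 had the opposite order (21.0 to 27.1 against 12.0 to 14.7 FPKM). The part of liver zonation in the results was not tested.

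Of 49 further genes of the same pathways, 48 were in the tables. Under ethanol 26 of the 46 tested were called lower in Aldh2-/- and 7 higher (median -0.45). Over all genes 15.7% were called lower and 21.5% higher there (median 0.04). Under pair-feeding 9 of 45 were lower and 4 higher (median -0.13), against 2.41% and 26.0% of all genes (median 0.26). The 4 with the smallest p under ethanol were all lower in Aldh2-/-. They were Ido2, another tryptophan dioxygenase (2.05 ± 1.06 against 7.49 ± 1.51 FPKM, adjusted p = 0.000668), Amt of the glycine cleavage system (5.89 ± 1.75 against 16.2 ± 3.06 FPKM, adjusted p = 0.000706), Aldh6a1 of valine breakdown (54.6 ± 12.8 against 104 ± 8.17 FPKM, adjusted p = 0.000859) and Shmt1, which moves one-carbon units between serine and glycine (30.7 ± 5.56 against 53.5 ± 2.84 FPKM, adjusted p = 0.000874).

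Under pair-feeding the smallest p belonged to Afmid, the kynurenine formamidase (11.0 ± 1.65 against 29.4 ± 7.45 FPKM, log2 -1.33, adjusted p = 0.00805), and Oat, ornithine transaminase (11.2 ± 1.40 against 36.99 ± 15.9 FPKM, log2 -1.57, adjusted p = 0.0103), both lower in Aldh2-/-. They were followed by Gcsh, the carrier protein of glycine cleavage, which was higher (92.4 ± 9.10 against 54.2 ± 4.94 FPKM, log2 0.76, adjusted p = 0.0108), and Aass of lysine breakdown, which was lower (35.8 ± 7.88 against 86.1 ± 19.3 FPKM, log2 -1.24, adjusted p = 0.011). Aass was higher in Aldh2-/- under ethanol (350 ± 117 against 152 ± 13.3 FPKM, log2 1.14, adjusted p = 0.00211), and its interaction of 2.38 was called (adjusted p = 0.000207).

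Of 13 regulators known to act on hepatic amino acid breakdown, 4 were called lower and 2 higher in Aldh2-/- under ethanol, and 1 was called, higher, under pair-feeding. The shares of all genes called were 15.7% lower and 21.5% higher under ethanol and 26.0% higher under pair-feeding. Creb3l3, a membrane-bound transcription factor of fasting liver, was lower under ethanol (91.4 ± 15.6 against 163 ± 29.8 FPKM, log2 -0.82, adjusted p = 0.00342), and so was Cebpa, a C/EBP factor of mature hepatocytes (67.8 ± 17.9 against 139 ± 39.9 FPKM, log2 -1.01, adjusted p = 0.00621). Crtc2, a coactivator of the cAMP response, was higher (14.5 ± 1.74 against 10.7 ± 0.974 FPKM, log2 0.39, adjusted p = 0.0137), and Sirt5, a mitochondrial deacylase that acts on Cps1, was lower (2.02 ± 0.0863 against 2.88 ± 0.523 FPKM, log2 -0.35, adjusted p = 0.0239). The gene called under pair-feeding was Nr3c1, the glucocorticoid receptor (4.31 ± 0.471 against 2.79 ± 0.0998 FPKM, log2 0.48, adjusted p = 0.0237), and its interaction of -0.84 was called (adjusted p = 0.00155). These are RNA levels, and no protein, enzyme activity or metabolite was measured in these files.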

How the data were processed

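Liver RNA of 15 libraries in 4 groups was analysed. Per the labels' protocols, TRIzol-extracted RNA went into a VAHTS Universal V10 library kit, and paired NovaSeq reads were taken. The tools named in the submitters' processing notes are fastp, HISAT2 and HTSeq, with mm10 as the build; versions and annotation are not given in the sources used here. The deposited values were FPKM computed by the authors, in 1 table per diet. Total counts are not given, and any further scaling of the libraries could not be checked. Of 23206 low values of 3198 genes, 23046 (99.31%) were whole multiples of a smallest step (tolerance 0.01 of a step), which gave the relative depths. The number of libraries and this spread in depth limit the precision. All columns were assigned to libraries by name.

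The test was limma (version 3.58.1, under R 4.3.3), two-sided, with a trended variance prior, on log2(FPKM + 1), a scale that understates changes of low genes. A gene entered a fit when its mean there reached 0.5 FPKM. P-values were Benjamini-Hochberg adjusted over all genes tested and called under 0.05. Genotype comparisons used the 2 groups of 1 diet; interaction and diet comparisons used a joint fit of 4 groups. Alternatives covered the pseudocount, the filter, 3 rescalings, robust variances, library quality weights, a replicate block, the set of groups in the fit and leaving out each library. Removal of mitochondrially encoded genes, and of WT 5 with Aldh2-/- 90, were chosen after seeing the data. The fit was also run on simulated data with independent noise in each gene. Those data lack the differences that real libraries share over many genes, so the run cannot show how the fit handles them. Gene coordinates follow GENCODE vM21 (GRCm38, mm10). Tables came from Python 3.11.15 with numpy 2.4.6 and pandas 2.3.3, and figures from matplotlib 3.10.9.

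The 37 genes and the lists beside them were chosen with earlier results of these data known. By the rule for named genes, values in every library were given for called members among the 8 largest changes of the genotype comparisons and the interaction, and up to 4 further pathway genes and regulators with the smallest p were named per genotype comparison. Protein sequences were not used here.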

Additional observations from a re-analysis of the deposited data

Results flagged for a closer look

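The genotype effect differed between the diets, by the interaction term of the joint limma fit, for 16 of the 37 genes. On the log2(FPKM + 1) scale the difference was positive for Got1 (3.59), Etnppl (3.34), Sds (3.04), Asl (2.30), Prodh (1.95), Sdsl (1.71), Hpd (1.66), Slc25a15 (1.39), Hgd (1.34), Hal (1.19), Tdo2 (1.16) and Ass1 (0.90). It was negative for Glud1 (-1.33), Qdpr (-1.08), Got2 (-0.89) and Pcbd1 (-0.80). Over all 11157 genes 37.1% were called in either direction, 8.06% positive and 29.0% negative. The all-gene median of the interaction was -0.22. The calls of Ass1 and Tdo2, at adjusted p = 0.0437 and 0.0391, each depended on single libraries, as did that of Hal.

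Gldc in ethanol-fed Aldh2-/- 96 stood apart from its group at 66.3 FPKM, with the next library at 36.3 FPKM. The measure was the gap to the nearest library as a share of the range of the group, 0.87 here. Only the ethanol-fed groups were looked at, in 74 group-and-gene combinations, and the pair-fed groups were not. In no other combination did the highest or lowest library stand apart by this measure. Chance alone gives about 1 in 20, so a single case is not more than chance gives. The ethanol difference of Gldc was called with and without Aldh2-/- 96.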

How the results depend on the processing

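Of the genotype calls, 10 of 14 under ethanol and 7 of 22 under pair-feeding held under every alternative run, as did 12 of 16 interactions, 9 of 14 diet calls in WT and 23 of 24 in Aldh2-/-. No gene was called in the opposite direction under any of them. The pair-fed count is the least stable: it was 13 with no filter on low levels, and leaving out 1 library gave 8 (without Aldh2-/- 1) to 23 (without WT 19), with 9 without WT 20. The interaction count rose from 16 to 26 with library quality weights. Groups of 3 and the unknown total counts limit the pair-fed values.

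The replicate numbers in the sample descriptions are shared by the groups but did not pair the libraries. Same-numbered libraries correlated at -0.09 to 0.24 under ethanol and at -0.02 to 0.03 under pair-feeding, and not every library correlated best with its own number. With the replicate block the counts were 11 under ethanol, 21 under pair-feeding, 16 for the interaction, 9 for the diet in WT and 24 for the diet in Aldh2-/-.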
